A study of Drosophila melanogaster with 12 samples.

Results

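The comparison is of BG3 cells treated with Rad21 RNAi and BG3 cells of a mock treatment. ML-DmBG3 is an established Drosophila melanogaster line derived from the central nervous system. The comparison holds 8 of the 12 expression arrays of the series, 4 Rad21 arrays and 4 Mock arrays that the labels call biological replicates. The other 4 arrays are of cells treated with Nipped-B RNAi. Replicates 1 and 2 of every treatment come from day 3, and replicates 3 and 4 come from days 4 and 6. The Rad21 cells received 40 µg of double-stranded RNA (dsRNA) at day 3 and 10 µg at days 4 and 6, as did the Nipped-B cells, and the Mock cells received 0 µg. Days 4 and 6 have 1 array per treatment and were pooled as a time class. Time class and dsRNA amount cannot be told apart. No array had a control dsRNA, so an effect of losing Rad21 and an effect of receiving dsRNA cannot be told apart either. Below, 4 values in a row are always replicates 1 to 4, that is, day 3, day 3, day 4 and day 6.

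Rad21 is the kleisin subunit of cohesin, the ring-shaped complex that holds sister chromatids together until anaphase. The other subunits are the SMC1 and SMC3 ATPases and the SA protein. Nipped-B and Mau2 load the ring onto chromosomes, pds5 and wapl act in its release, and eco and san are acetyltransferases that help establish cohesion. Outside cell division cohesin also binds along many active genes and takes part in the control of transcription.

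In Drosophila the gene for Rad21 is vtd, on chromosome arm 3L. Equal amounts of a pair of dsRNAs against Rad21 were used together. The gene-specific parts of their PCR primers are shown because they mark the stretches of the transcript that were targeted. They are written 5′ to 3′ without the shared tail for the T7 promoter.
Rad21 pair 1 forward: ctggttggcagcacattggg
Rad21 pair 1 reverse: gcatatcagcatgggcgtcc
Rad21 pair 2 forward: tgggtgacgattttaatcaaggag
Rad21 pair 2 reverse: cgcctgttttctggaatttcctg
The arrays give no check of the knockdown itself, since no probe set used here is named for vtd alone.

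RNA was hybridised to Affymetrix Drosophila Genome 2.0 arrays, and the values are log2 expression levels that the authors computed with GCRMA. Probe sets with no signal lie between log2 2 and 3 on this scale. Testing was limited to the 7350 of 18769 probe sets with a level of log2 4 or more on at least 2 arrays of the series, which represent 5928 genes. Between 7199 and 7261 probe sets reached log2 4 on each array, and the median of the tested ones was 9.36 to 9.40 on Rad21 arrays and 9.33 to 9.41 on Mock arrays. GCRMA normalizes by quantiles, which makes the arrays alike in such figures. A shift of all transcripts together could not be seen, and effects are relative to the other transcripts. An effect is the mean of the Rad21 minus Mock differences in the time classes, in log2 units, with its SE from limma, and an effect is called at a Benjamini-Hochberg adjusted p of at most 0.1 over all 7350 probe sets. The precision is limited by the number of arrays. In a whole culture, fewer cells of a type and less RNA per cell cannot be told apart.

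The cells expressed some but not all of the genes that define nervous tissue. Of 7 neuronal markers with a probe set only elav and cac reached log2 4 on at least 2 arrays, and nSyb, brp, para, fne and futsch were at background. Of 7 glial markers 5 were measured, among them repo at log2 4.26 to 4.55 on Rad21 and 4.15 to 5.23 on Mock arrays and moody at log2 12.73 to 12.92 on Rad21 and 12.70 to 13.04 on Mock arrays. Of 8 neuroblast markers 2 were measured, and dpn, wor, ase and pros were at background. The haemocyte markers srp, crq, Pxn and eater were present, and Hml, He and NimC1 were at background. The summed linear level of the 7 haemocyte markers was 11639 to 14756 on Rad21 arrays and 8213 to 11215 on Mock arrays, so these ranges did not overlap. Of single tested probe sets 14.5% were separated in this direction. srp, a GATA factor, made up most of the sum. Taken singly the markers did not move together. srp (0.48) and Pxn (0.44) were called higher, eater was called lower (-2.25), and crq was not called (0.21, adjusted p = 0.118). The muscle markers Act88F, Tm2 and twi were at background. The part of these marker levels in the results below was not tested.

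Rad21 RNAi changed a large share of the expressed transcripts, mostly by small amounts. Of the 7350 probe sets 3782 were called (51.5%), 2009 higher (27.3%) and 1773 lower (24.1%) in Rad21 cells. Counted as genes, 1618 of 5928 were higher (27.3%) and 1489 lower (25.1%), and the median effect over all tested genes was 0.04. These shares are the background for the counts of single gene lists below, as are 2.23% of genes 2-fold or more higher and 2.34% 2-fold or more lower. At day 3 alone 15.4% of genes were called higher and 16.7% lower, and at days 4 and 6 alone 21.5% and 20.8%. Of the 2009 raised probe sets 546 (27.2%) rose less than 1.2-fold and 989 (49.2%) rose 1.2-fold to 1.5-fold. Only 144 rose 2-fold to 4-fold and 39 (1.94%) rose 4-fold or more. Of the 1773 lowered probe sets 417 fell less than 1.2-fold, 765 fell 1.2-fold to 1.5-fold, 151 fell 2-fold to 4-fold and 26 (1.47%) fell 4-fold or more.

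Most called changes ran the same way in every pair of arrays. Among the raised probe sets 1818 of 2009 (90.5%) were higher in all 4 comparisons of a Rad21 array with the Mock array of the same number, and among the lowered 1598 of 1773 (90.1%) were lower in all 4. Over all tested probe sets 33.3% and 26.4% were so. For 1027 of the raised (51.1%) the lowest Rad21 array was above the highest Mock array, and for 1080 of the lowered (60.9%) the highest Rad21 array was below the lowest Mock array. Over all tested probe sets, called or not, 14.5% and 15.2% were separated in these directions. The calls were made from these same arrays, so larger shares among the called probe sets follow at least in part from that choice. With treatment as the only term in the fit, and no time class, 1325 probe sets were higher and 1324 lower.

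**Figure D1:**
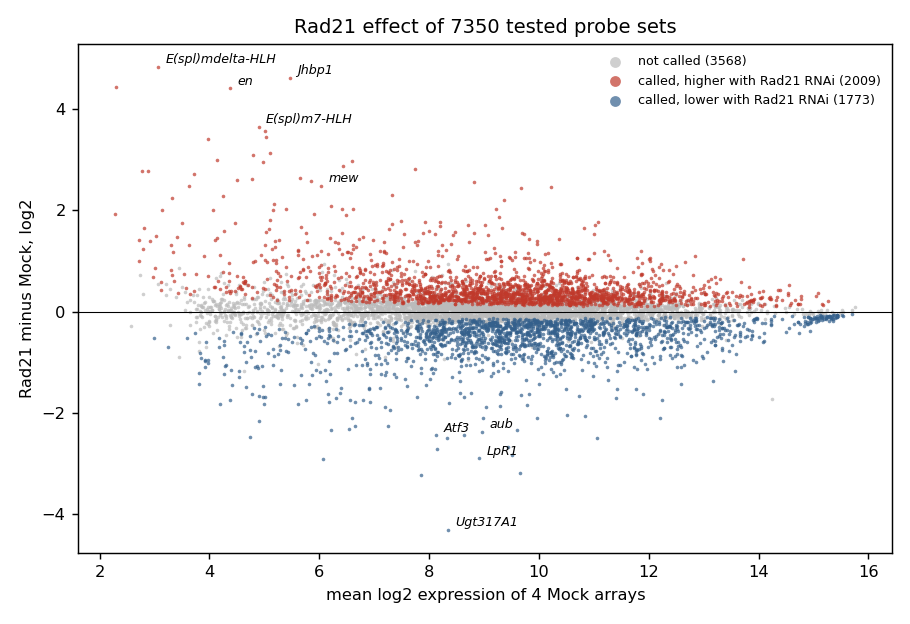
Effect of Rad21 RNAi (Rad21 minus Mock, log2, y axis) against the mean log2 level of the 4 Mock arrays (x axis), with 1 point per tested probe set; red points are the 2009 called higher, blue points the 1773 called lower and grey points the 3568 not called. The effects above 4 belong to transcripts that were at or below about log2 6 in Mock cells, and the band of small negative effects near log2 15 holds the probe sets with the highest levels.

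Large increases sat among weakly expressed genes. In the quintile of genes with the lowest Mock level (log2 2.29 to 7.69) 75 genes rose 2-fold or more, against 18, 20, 11 and 8 in the next 4 quintiles. Large decreases were spread in the same way, with 63, 23, 20, 17 and 16 genes 2-fold or more lower in the 5 quintiles. The Mock level both sets the quintile and is subtracted in the effect. A gene under log2 4 on all Mock arrays was tested only through knockdown arrays at log2 4 or more. The pattern of the raised genes is therefore in part built in by these choices. The share of genes called higher changed little with the level, between 25.5% and 30.2%, while the share called lower was 18.9% in the lowest quintile and 31% in the highest.

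The 20 most raised genes, ranked with values under log2 4 set to 4, include genes for transcription factors, a hormone-binding protein, a water channel and an integrin. en, the homeobox gene engrailed, was at 8.22, 8.34, 9.33 and 9.20 on the Rad21 arrays and 4.34, 4.64, 4.31 and 4.20 on the Mock arrays. inv, its neighbour and paralogue invected, was at 7.82, 7.91, 9.15 and 9.40 on the Rad21 arrays and 4.98, 5.12, 5.07 and 4.84 on the Mock arrays. For both, every Rad21 array was far above every Mock array, and the Rad21 arrays of days 4 and 6 were above those of day 3. The effect was 4.40 ± 0.17 (SE, adjusted p = 2.8e-06) for en and 3.57 ± 0.12 (SE, adjusted p = 9.89e-07) for inv.

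The E(spl)-C is a cluster of genes that Notch signalling activates, and its HLH members encode repressors. E(spl)mdelta-HLH was at 7.47, 7.22, 7.82 and 9.02 on the Rad21 arrays and 3.39, 3.80, 2.66 and 2.40 on the Mock arrays, so that no Mock array reached log2 4. With values under log2 4 set to 4 its effect was 3.88, against 4.82 without that floor. E(spl)m7-HLH was at 8.03, 8.01, 8.51 and 9.61 on the Rad21 arrays and 6.24, 6.01, 4.01 and 3.32 on the Mock arrays. E(spl)m3-HLH was at 8.41, 8.33, 9.55 and 10.86 on the Rad21 arrays and 8.20, 8.11, 6.39 and 2.99 on the Mock arrays. The last of these was nearly level with Mock at day 3 (0.21) and far above it at days 4 and 6 (5.52), where the Mock arrays themselves were low. Its effect over both classes was 2.87 ± 0.77 (SE, adjusted p = 0.0161). E(spl)mbeta-HLH had an effect of 2.01 ± 0.26 (SE, adjusted p = 0.000483), and E(spl)malpha-BFM, at 0.48 ± 0.50, was not called (adjusted p = 0.468). So 4 of the 5 tested E(spl)-C genes rose and none fell, where 27.3% of all genes rose. E(spl)mdelta-HLH passed the filter only through knockdown arrays, so its place in this count is in part built in. The other 5 with a probe set did not reach log2 4 on 2 arrays. Among them E(spl)m2-BFM passed log2 4 on the day 6 Rad21 array alone (5.39).

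Genes of juvenile hormone handling were among the most raised. Jhbp1, annotated as a juvenile hormone binding protein, was at 9.55, 9.75, 10.67 and 10.31 on the Rad21 arrays and 6.48, 6.54, 4.95 and 3.88 on the Mock arrays. Jhe, which encodes the esterase that degrades the hormone, was at 8.27, 8.28, 7.17 and 7.74 on the Rad21 arrays and 6.29, 6.95, 3.28 and 2.63 on the Mock arrays. Every Rad21 array was above every Mock array for both genes, and for both the Mock level was lower at days 4 and 6 than at day 3. The effects were 4.61 ± 0.21 (SE, adjusted p = 8.84e-06) and 3.08 ± 0.50 (SE, adjusted p = 0.00137). Over the hormone list 3 of 6 tested genes rose and 2 fell, the lowered ones being JhI-21, an amino acid transporter (-0.87), and RNaseZ, a tRNA-processing enzyme (-0.60).

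Prip, an aquaporin, was at 7.64, 7.41, 6.70 and 7.75 on the Rad21 arrays and 4.27, 4.19, 3.64 and 3.82 on the Mock arrays. orb2, which encodes a CPEB protein that controls translation in neurons, was at 7.48, 7.12, 8.75 and 9.58 on the Rad21 arrays and 5.25, 5.43, 4.72 and 4.97 on the Mock arrays. mew, the αPS1 integrin subunit, was at 8.22, 7.93, 8.85 and 9.06 on the Rad21 arrays and 6.03, 5.87, 5.97 and 6.26 on the Mock arrays. The groups did not overlap for any of the 3, and orb2 was highest on the Rad21 arrays of days 4 and 6. The effects were 3.39 ± 0.59 (SE, adjusted p = 0.002), 3.14 ± 0.47 (SE, adjusted p = 0.000917) and 2.48 ± 0.14 (SE, adjusted p = 2.04e-05), in the same order. bib, the other tested aquaporin gene, had an effect of -0.23 (adjusted p = 0.383).

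The rest of the 20 most raised genes hold an innexin, a cytochrome P450, a glycosyltransferase and a growth factor. ogre, an innexin of gap junctions, was at 11.20, 11.29, 12.69 and 13.27 on the Rad21 arrays and 9.48, 9.47, 9.82 and 9.92 on the Mock arrays. Cyp310a1 was at 12.85, 13.04, 12.55 and 12.27 on the Rad21 arrays and 10.37, 10.54, 10.40 and 9.56 on the Mock arrays. rt, which encodes a protein O-mannosyltransferase, was at 6.66, 6.74, 6.41 and 6.28 on the Rad21 arrays and 4.77, 4.69, 3.55 and 3.94 on the Mock arrays. These 3 genes rose by 2.44, 2.46 and 2.28 with adjusted p of 0.000274, 3.6e-05 and 2.11e-05. Idgf2, a chitinase-like imaginal disc growth factor, was at 8.95, 9.10, 7.21 and 6.50 on the Rad21 arrays and 6.78, 6.82, 3.78 and 2.55 on the Mock arrays. Here the groups overlapped, as the level was lower at the later days in both treatments, but each Rad21 array was above the Mock array of its own number. The effect was 2.96 ± 0.33 (SE, adjusted p = 0.000214). CG30197 overlapped too, with an effect of 2.03 ± 0.15 (SE, adjusted p = 3.81e-05). SppL, a signal peptide peptidase-like protease, rose by 2.29, hng3 by 2.19, CG32181 by 2.99, CG16700 by 2.97 and CG30154 by 2.60, and for these 5 the groups did not overlap.

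**Figure D2:**
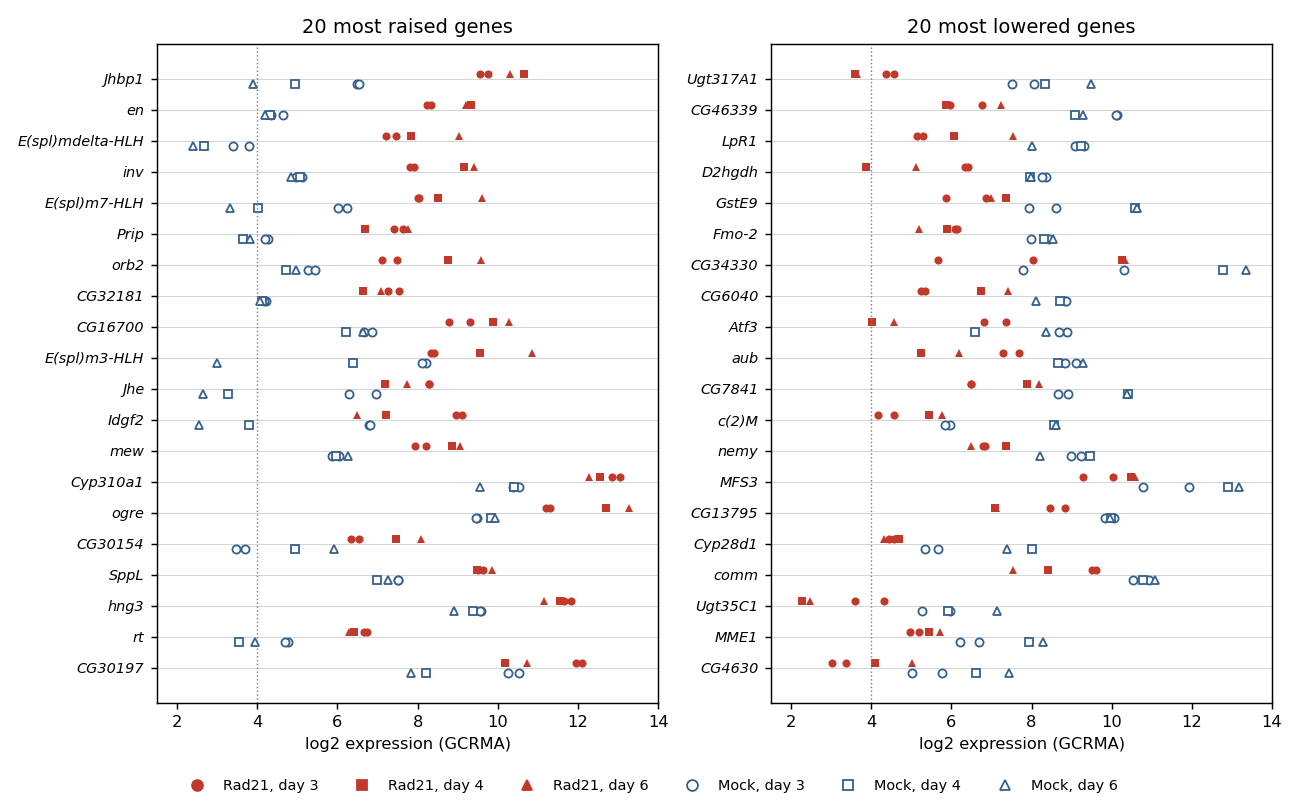
Log2 expression (x axis) of the 20 most raised genes (left panel) and the 20 most lowered genes (right panel) on each array; filled red symbols are Rad21 arrays and open blue symbols Mock arrays, with circles for day 3, squares for day 4 and triangles for day 6, and the dotted line marks log2 4. Both sets of 20 were ranked by the effect with values under log2 4 set to 4, so the side on which the red symbols fall was given by the choice; en, inv and mew have Mock values in a narrow band, while Idgf2, CG30197, CG34330 and Atf3 are the genes whose groups overlap.

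The most lowered genes include enzymes of detoxification, a lipoprotein receptor and germline genes. Ugt317A1, a UDP-glycosyltransferase, was at 4.58, 4.37, 3.60 and 3.63 on the Rad21 arrays and 8.07, 7.50, 8.33 and 9.49 on the Mock arrays. LpR1, a lipophorin receptor, was at 5.15, 5.29, 6.05 and 7.55 on the Rad21 arrays and 9.08, 9.30, 9.24 and 8.01 on the Mock arrays. GstE9, a glutathione S-transferase, was at 6.85, 5.86, 7.36 and 7.0 on the Rad21 arrays and 8.60, 7.94, 10.59 and 10.63 on the Mock arrays. The groups were apart for all of these, although for LpR1 the day 6 arrays came close to each other. The effects were -4.30 ± 0.31 (SE, adjusted p = 4.09e-05), -2.90 ± 0.35 (SE, adjusted p = 0.000325) and -2.67 ± 0.45 (SE, adjusted p = 0.00169).

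aub, which encodes a Piwi family protein that works with piRNAs, was at 7.70, 7.28, 5.25 and 6.18 on the Rad21 arrays and 9.10, 8.84, 8.66 and 9.28 on the Mock arrays. c(2)M, a component of the synaptonemal complex of meiosis, was at 4.56, 4.16, 5.43 and 5.76 on the Rad21 arrays and 5.97, 5.84, 8.56 and 8.61 on the Mock arrays. Both are known from the germline, and both were expressed in Mock BG3 cells above log2 5 on every array. They fell by 2.37 ± 0.25 (SE, adjusted p = 0.000183) and 2.27 ± 0.41 (SE, adjusted p = 0.00258). Of 7 tested germline genes 3 fell and 0 rose. They were aub, spn-E (-0.54) and tej (-0.30), all of the piRNA pathway, and with the replicate number as a block 2 fell. Of the 4 germline markers with a probe set, nanos and piwi were at background on these arrays, and osk, at 5.8, 5.42, 4.37 and 5.07 on the Rad21 arrays and 5.18, 5.23, 3.98 and 5.14 on the Mock arrays, was not called (0.28, adjusted p = 0.432). The summed linear level of the 4 was 69.7 to 274 on Rad21 arrays and 431 to 670 on Mock arrays, and aub made up most of it.

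comm, which controls the sorting of the Robo receptor in axon guidance, was at 9.62, 9.50, 8.40 and 7.53 on the Rad21 arrays and 10.92, 10.53, 10.79 and 11.08 on the Mock arrays. Atf3, a stress-responsive bZIP factor, was at 7.36, 6.82, 4.02 and 4.56 on the Rad21 arrays and 8.88, 8.68, 6.58 and 8.37 on the Mock arrays. The groups of Atf3 overlapped, as Mock replicate 3 was low. The effects were -2.07 ± 0.21 (SE, adjusted p = 0.000156) and -2.44 ± 0.38 (SE, adjusted p = 0.00113). D2hgdh, a hydroxyglutarate dehydrogenase, fell by 2.71, Fmo-2, a flavin monooxygenase, by 2.5, MFS3, a transporter of the major facilitator family, by 2.10, nemy, a cytochrome b561, by 2.10, and MME1, a mitochondrial magnesium exporter, by 1.95. CG34330 was at 8.03, 5.66, 10.26 and 10.34 on the Rad21 arrays and 10.32, 7.80, 12.79 and 13.34 on the Mock arrays. Its arrays spread over more than 4 log2 units within each treatment, while each Rad21 array was below the Mock array of its number by 2.14 to 3.01. The adjusted p was 0.0268, and 9.33e-05 with the replicate block, and the call was lost with treatment as the only term.

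Genes for making proteins fell together. The aminoacyl-tRNA synthetases charge tRNAs with amino acids, and all 18 tested fell, with a median effect of -0.61 against 0.04 over all tested genes. Translation factors fell in 27 of 38 cases with 0 raised (median -0.32). Genes of nucleolar ribosome assembly fell in 23 of 25 with 0 raised (median -0.87), and 7 of these fell 2-fold or more, where 2.34% of all genes did. RNA polymerase subunits fell in 15 of 21 (median -0.39), and the 5 lowest were subunits of polymerase I, which transcribes ribosomal RNA. With each array left out in turn the counts of lowered genes were 17 to 18, 25 to 28, 22 to 23 and 12 to 16 in these lists.

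Nop60B, the pseudouridine synthase of box H/ACA particles, was at 10.22, 9.66, 10.62 and 10.61 on the Rad21 arrays and 12.02, 11.60, 12.27 and 11.72 on the Mock arrays. Fib, the methyltransferase fibrillarin, had a mean of 9.91 ± 0.32 on Rad21 arrays and 11.26 ± 0.15 on Mock arrays (SD, n = 4 each). Polr1B, the second largest subunit of polymerase I, was at 6.86, 6.86, 6.82 and 7.07 on the Rad21 arrays and 8.20, 8.04, 8.08 and 7.84 on the Mock arrays. The groups were apart for all 3 genes. They fell by 1.62, 1.36 and 1.14, with adjusted p of 0.000416, 0.000102 and 5.07e-05. pit, a DEAD-box helicase of the nucleolus, fell by 1.14, and Mybbp1A by 1.21. Rrp1, which encodes a DNA repair nuclease, and Nop17l, the members of the nucleolar list that were not called, had effects of 0.10 and 0.02.

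ValRS, the valyl-tRNA synthetase, was at 10.11, 10.08, 10.62 and 10.83 on the Rad21 arrays and 11.29, 11.01, 11.88 and 11.70 on the Mock arrays. eIF6, which keeps ribosomal subunits apart, was at 10.91, 10.85, 11.15 and 11.08 on the Rad21 arrays and 11.73, 11.72, 11.94 and 11.70 on the Mock arrays. Each Rad21 array was below each Mock array for both. The effects were -1.06 ± 0.11 (SE, adjusted p = 0.000157) and -0.77 ± 0.11 (SE, adjusted p = 0.000868). Among synthetases the smallest fall was that of GlnRS (-0.17). The initiation factor eIF4A (-0.03, adjusted p = 0.436) and the cap-binding eIF4E1 (0.02, adjusted p = 0.776) were not called, while the eIF3 and eIF2B subunits eIF3b (-0.49) and eIF2Bgamma (-0.72) fell.

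Ribosomal protein genes fell by less. Of 69 tested genes for mitochondrial ribosomal proteins 55 fell and 0 rose (median -0.31). mRpL28 was the most lowered, at 10.66, 10.56, 10.97 and 10.99 on the Rad21 arrays and 11.46, 11.26, 12.03 and 11.92 on the Mock arrays, an effect of -0.88 ± 0.11 (SE, adjusted p = 0.000399). Of 33 genes on the list of cytosolic ribosomal proteins 25 fell and 0 rose, with a median of only -0.12. The 3 lowest of them, RpLP0-like (-1.0), RpL24-like (-0.83) and RpL7-like (-0.72), are paralogues named for their likeness to ribosomal proteins. Without such genes 22 of 30 fell and the effects lay between -0.40 and 0.03. These transcripts were among the brightest on the arrays, with a median Mock level of log2 15.1 on the list, and how far such a level can still follow a change was not tested.

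Genes of energy metabolism fell by smaller amounts, and few proteasome genes were called. Of 52 tested genes of oxidative phosphorylation 35 fell and 0 rose (median -0.21). Cyt-c1, a subunit of complex III, was at 11.58, 11.60, 11.83 and 11.77 on the Rad21 arrays and 12.22, 12.31, 12.60 and 12.41 on the Mock arrays, an effect of -0.69 ± 0.06 (SE, adjusted p = 7.32e-05). Of 9 glycolytic genes 7 fell and 0 rose, Pfk, phosphofructokinase, by the most (0.65). This count rests on single arrays: it was 2 without Mock replicate 1, 3 without Mock replicate 4, Rad21 replicate 2 or Rad21 replicate 4, 4 without Rad21 replicate 1 and 0 with treatment as the only term. At day 3 no glycolytic gene was called, and at days 4 and 6 the count was 6. Of 26 proteasome subunits 1 was called, Prosbeta7 (-0.12, adjusted p = 0.0967), and all effects lay between -0.15 and 0.14. The count was 0 to 5 with each array left out. With the replicate number as a block 6 proteasome genes were lower and 1 higher.

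Of 18 chaperone genes 11 fell and 3 rose. The mitochondrial Hsp60A was at 12.07, 12.12, 12.60 and 12.65 on the Rad21 arrays and 13.22, 13.11, 13.59 and 13.45 on the Mock arrays, and the groups were well apart. Its effect was -0.98 ± 0.08 (SE, adjusted p = 7.28e-05), and the mitochondrial Hsc70-5 fell by 0.77. All 8 tested subunits of the cytosolic chaperonin CCT fell, by 0.17 (CCT4) to 0.47 (CCT3). Hsc70-3, the chaperone of the endoplasmic reticulum, rose by 0.22, and the small heat shock gene Hsp27 rose by 0.36. The rise of Hsp68 (0.40, adjusted p = 0.0946) was not called with the replicate block (adjusted p = 0.19).

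Detoxification genes moved in both directions. Of 22 tested glutathione S-transferases 14 fell and 4 rose (median -0.38). GstE1 went against its neighbours, at 10.46, 10.52, 11.02 and 10.99 on the Rad21 arrays and 9.38, 9.55, 9.77 and 9.57 on the Mock arrays, an effect of 1.18 ± 0.06 (SE, adjusted p = 1.83e-05). GstD4, GstE6, GstD5 and GstE7 fell by 1.69, 1.44, 1.24 and 1.19. GstE and GstD genes are closely related, and probe sets of such families may respond to more than 1 member. Of 14 cytochrome P450 genes 4 rose, Cyp9c1 by 1.80, and 5 fell, Cyp28d1 with an effect of -2.09. Of 6 UDP-glycosyltransferases 3 fell and all 3 fell 2-fold or more.

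Genes of amino acid supply and its stress response fell where they changed, 6 of 11 with 0 raised. They are Atf3, Nmdmc (-1.01) and Shmt (-0.64) of one-carbon metabolism, the asparagine synthetase AsnS (-0.69), the kinase PEK (-0.52) and crc, the fly ATF4 (-0.22). In lipid handling 5 of 12 genes rose and 2 fell. Lsd-1, the perilipin of lipid droplets, was at 7.64, 7.62, 8.05 and 7.61 on the Rad21 arrays and 5.51, 6.52, 7.18 and 7.09 on the Mock arrays, an effect of 1.15 ± 0.21 (SE, adjusted p = 0.00261). The fatty acid enzymes ACC (0.45) and FASN1 (0.23) rose and the lipoprotein receptor LpR2 fell (-0.53). That count of 5 was 3 without Mock replicate 1, Mock replicate 2, Rad21 replicate 1 or Rad21 replicate 3, and 2 without Rad21 replicate 2.

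**Figure D3:**
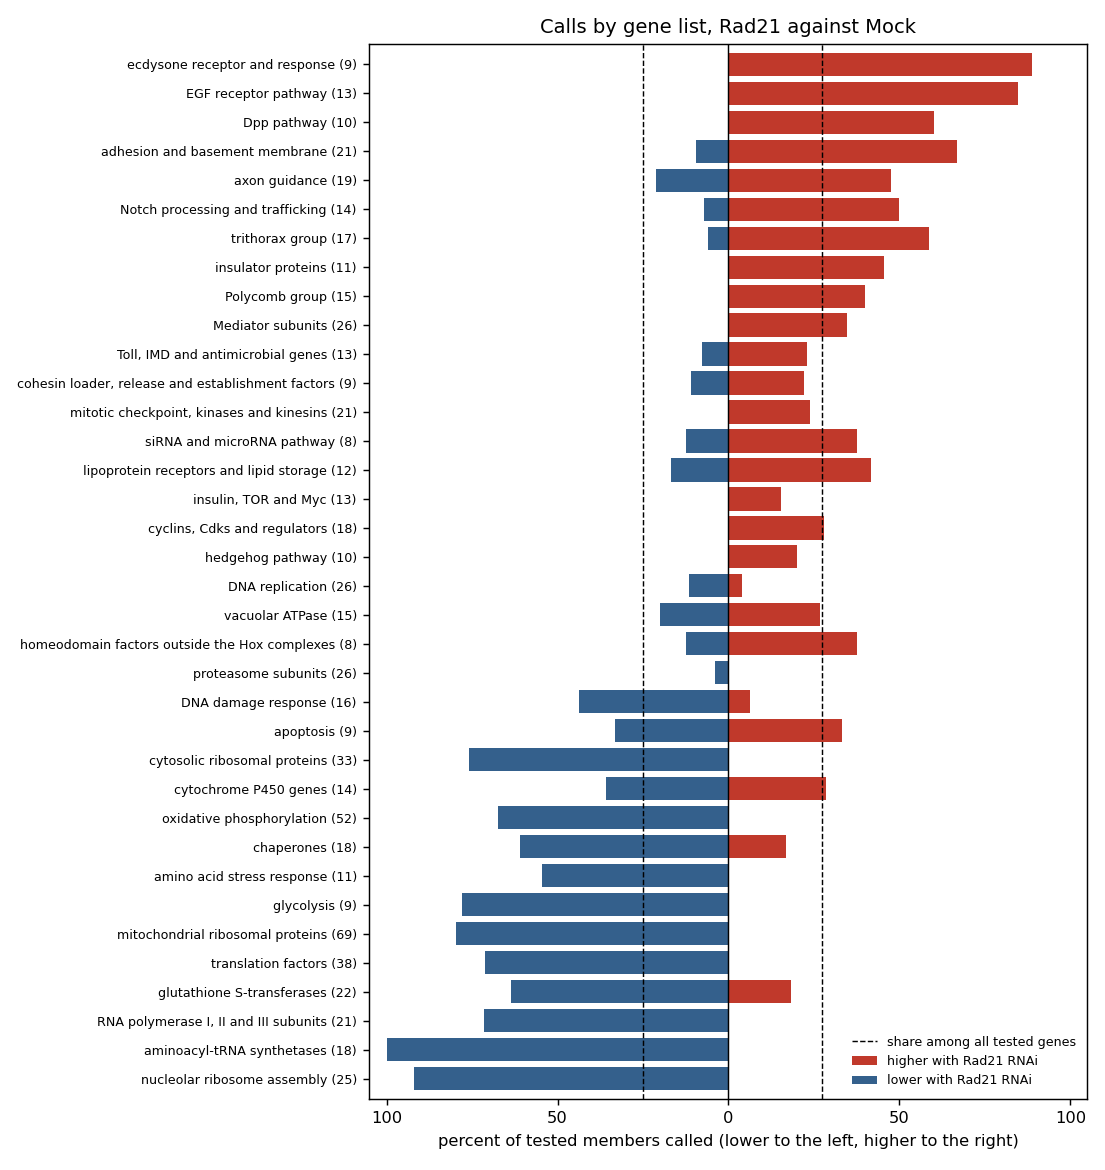
Percent of tested members called lower (blue, to the left) and higher (red, to the right) in Rad21 against Mock, for gene lists with at least 8 tested members (number in parentheses), ordered by median effect; dashed lines mark 25.1% lower and 27.3% higher, the shares over all 5928 tested genes. The lists of nucleolar assembly, tRNA synthetases, translation factors, mitochondrial ribosomal proteins and oxidative phosphorylation reach far past the left line with 0 members on the right, and the ecdysone and EGF receptor lists reach past the right line with 0 on the left.

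Lists of signalling genes differed from each other. In the EGF receptor pathway 11 of 13 tested genes rose and 0 fell (median 0.46). They include the ligand spi (0.68) and Star (S, 0.39), which helps to export it, the adaptor drk (0.52), the exchange factor Sos (0.46), the kinase Dsor1 (0.36), and the inhibitors aos (1.05), sty (0.90), kek1 (0.73) and Cbl (0.32). Both activators and inhibitors of the pathway were among the raised genes. aos was at 8.66, 8.47, 8.12 and 8.72 on the Rad21 arrays and 8.59, 8.43, 7.25 and 5.52 on the Mock arrays. It was not called with the replicate block (adjusted p = 0.101), and without Rad21 replicate 4 the count on the list was 7.

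Genes that respond to the steroid hormone ecdysone rose in 8 of 9 cases, with 0 lowered (median 0.55). EcR (0.68) and usp (0.26) encode the partners of the receptor, tai (1.13) its coactivator, and br (0.94), Hr39 (0.62) and ftz-f1 (0.55) transcription factors downstream. shd, the enzyme that turns ecdysone into its active form, was at 9.24, 9.22, 9.09 and 9.57 on the Rad21 arrays and 7.49, 7.90, 6.86 and 7.68 on the Mock arrays. Its groups did not overlap, and the effect was 1.80 ± 0.22 (SE, adjusted p = 0.000336). With treatment as the only term 4 genes of the response list were called. At day 3 the list had 3 called and at days 4 and 6 it had 7.

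In the Dpp pathway, the fly BMP pathway, 6 of 10 tested genes rose and 0 fell (median 0.32). wit, a type II receptor, was at 8.17, 8.10, 4.45 and 3.66 on the Rad21 arrays and 4.61, 4.79, 2.48 and 2.64 on the Mock arrays. Its level dropped with time in both treatments and the groups overlapped, and both day 6 arrays were under log2 4. The effect was 2.47 ± 0.21 (SE, adjusted p = 7.32e-05), and 1.83 with values under log2 4 set to 4. The type I receptor tkv (0.69), the Smad protein Mad (0.40) and the inhibitory Smad Dad (1.42) rose too. In the hedgehog list 2 of 10 genes rose and 0 fell, a smaller share than the 27.3% of all genes. Of 3 tested wingless pathway genes 0 were called, with effects between -0.19 and 0.16.

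Of the Notch pathway itself, gro, the Groucho corepressor that works with E(spl) proteins, rose by 0.64 ± 0.12 (SE, adjusted p = 0.00268). H (0.38), mam (0.26) and CtBP (0.13) were not called, and with the replicate block 3 of these 4 nuclear genes were. The list of the receptor and nuclear effectors has 6 genes, and only these 4 had a probe set that names them alone. The gene of the Notch receptor was therefore not assessed here. The ligand gene Delta was at 4.73, 4.33, 4.76 and 5.86 on the Rad21 arrays and 6.30, 5.89, 4.62 and 4.75 on the Mock arrays, lower than Mock at day 3 and not at the later days, and its effect of -0.47 ± 0.26 was not called (adjusted p = 0.183). Of the 2 Notch ligand genes only Delta had a probe set that names it alone. Serrate was therefore not assessed here, and the paper reports that cohesin RNAi increased its transcripts. Of 14 genes for the processing and trafficking of Notch 7 rose and 1 fell. numb, an inhibitor of Notch, was at 10.15, 10.13, 10.15 and 10.46 on the Rad21 arrays and 9.29, 9.44, 9.29 and 9.24 on the Mock arrays, an effect of 0.91 ± 0.12 (SE, adjusted p = 0.000428). The lowered member, aux, changed by -0.16 and was not called with the block (adjusted p = 0.114). The count of 7 was 4 without Rad21 replicate 2 or replicate 3.

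On the list of adhesion and basement membrane 14 of 21 tested genes rose and 2 fell (median 0.28), and the count of raised genes was 9 without Mock replicate 1. Beside mew, the neural adhesion genes Fas1 (1.03), CadN (0.80) and Ten-a (0.71) rose, as did the perlecan gene trol (0.50) and the collagen IV gene Col4a1 (0.30). The integrin genes were split: mew and the β subunit mys (0.32) rose, while if, the αPS2 subunit (-1.42), and scb, the αPS3 subunit (-1.02), fell. if was at 5.03, 4.87, 3.97 and 3.68 on the Rad21 arrays and 7.22, 7.04, 5.01 and 3.96 on the Mock arrays, so that the difference was larger at day 3. In axon guidance 9 of 19 genes rose and 4 fell. Lar (0.66), PlexB (0.66), Ephrin (0.64) and robo1 (0.49) rose and comm, unc-5 (-0.75), otk (-0.38) and fra (-0.35) fell.

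The other cohesin genes changed by small amounts. SMC1 was at 10.12, 10.00, 9.84 and 9.72 on the Rad21 arrays and 9.98, 10.02, 9.53 and 9.39 on the Mock arrays. SMC3 was at 8.75, 8.78, 8.64 and 8.45 on the Rad21 arrays and 8.73, 8.73, 8.27 and 8.01 on the Mock arrays. SA1 was at 9.06, 9.10, 8.51 and 8.37 on the Rad21 arrays and 8.73, 8.79, 8.28 and 7.62 on the Mock arrays. In all 3 the groups overlapped, and the differences of 0.19, 0.22 and 0.40 were called (adjusted p = 0.0391, 0.0532 and 0.0326) but lost the call with treatment as the only term, and 1 of 3 was called without Mock replicate 1, Rad21 replicate 1 or Rad21 replicate 3. None of the 3 was called at day 3 and all were at days 4 and 6. Among 9 loading, release and establishment factors wapl (0.38) and the securin pim (0.29) rose and san (-0.24) fell, while Mau2 (0.20), pds5 (0.16), dmt (0.10), eco (0.13), thr (-0.07) and Sse (-0.04) did not pass. Without Mock replicate 3 the count of raised factors was 5. The Nipped-B probe set was at background on the arrays, so its transcript was not measured. Of 6 condensin genes 3 rose and 0 fell, barr by the most at 0.57 ± 0.09 (SE, adjusted p = 0.00131), and the count was 1 without Mock replicate 1, Rad21 replicate 1 or Rad21 replicate 3, and 6 without Mock replicate 3.

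Most chromatin regulators that changed rose, by less than 2-fold. Of 17 trithorax group genes 10 rose and 1, dom (-0.27), fell, and of 15 Polycomb group genes 6 rose and 0 fell. skd, which encodes the Med13 subunit of Mediator, was at 10.04, 10.19, 9.70 and 9.85 on the Rad21 arrays and 9.41, 9.67, 8.74 and 8.88 on the Mock arrays, an effect of 0.77 ± 0.12 (SE, adjusted p = 0.00129). trx (0.47), osa (0.45), kis (0.44) and brm (0.42) rose on the trithorax side and Asx (0.48), Pc (0.43) and Psc (0.41) on the Polycomb side. Psc, jing (0.36) and Lim1 (0.67) are the 3 measured genes that the study lists as carrying both cohesin and the H3K27Me3 mark outside the large complexes, and all 3 rose. That list comes from the same study and is not independent evidence. Of 26 Mediator genes 9 rose and 0 fell, and 16 rose with the replicate block or without Mock replicate 3. Of 11 insulator protein genes 5 rose, Trl (0.37) by the most, with 2 called without Mock replicate 1 or Rad21 replicate 1 and 3 without Mock replicate 4, Rad21 replicate 2 or Rad21 replicate 4. With treatment as the only term the counts of raised genes were 4 for trithorax, 3 for Polycomb, 4 for Mediator and 0 for insulator proteins. At day 3 alone they were 2, 0, 3 and 1 in the same order, where 15.4% of all genes were higher. At days 4 and 6 alone they were 10, 8, 10 and 6, where 21.5% of all genes were higher. For the condensin genes above the counts were 1 at day 3 and 5 at days 4 and 6. Of 8 genes of the bithorax and Antennapedia complexes with a probe set, 0 reached log2 4 on any of the 12 arrays.

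Cell cycle genes gave counts near or below those of all genes. Of 18 cyclin, Cdk and regulator genes 5 rose and 0 fell, Cdk5 (0.53), fzr (0.38) and CycB (0.36) among them. Of 21 genes of the mitotic checkpoint, kinases and kinesins 5 rose and 0 fell, with Klp67A, a kinesin-8, at 10.52, 10.54, 10.29 and 10.00 on the Rad21 arrays and 10.02, 10.28, 9.57 and 9.14 on the Mock arrays. These groups overlapped, and the level was lower at the later days in both treatments. Of 26 DNA replication genes 1 rose and 3 fell. Without Mock replicate 3 the counts of raised genes were 8 for cyclins, 10 for the mitotic list and 13 for replication, and no replication gene was called higher without Mock replicate 1 or 4, Rad21 replicate 1, 2 or 3, or Nipped-B replicate 2. The 3 lowered replication genes became 0 without Mock replicate 2, Rad21 replicate 1 or Rad21 replicate 4, 1 without Mock replicate 1, Mock replicate 3 or Rad21 replicate 2, and 7 without Mock replicate 4.

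Of 16 DNA damage genes 7 fell, among them Irbp (Ku70; -0.44), DNAlig4 (-0.37) and p53 (-0.25), and the checkpoint kinase lok rose (0.37). The count of 7 was 3 without Rad21 replicate 2 and 4 without Rad21 replicate 3. In apoptosis the caspase genes Dcp-1 (0.62) and Dronc (0.35) rose, and egr, the fly TNF (-1.10), and Dark, the Apaf-1 homologue (-0.28), fell. egr was at 11.28, 11.24, 9.99 and 10.00 on the Rad21 arrays and 12.29, 12.46, 11.38 and 10.76 on the Mock arrays, lower on each Rad21 array than on the Mock array of its number. Dcp-1 was at 10.83, 10.86, 10.58 and 10.54 on the Rad21 arrays and 10.37, 10.45, 9.71 and 9.78 on the Mock arrays, with no overlap.

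Genes that could respond to dsRNA or infection moved in both directions. On the siRNA and microRNA list 3 of 8 genes rose (37.5%, against 27.3% of all genes) and 1 fell (12.5%, against 25.1%). At day 3 alone 3 of the 8 were higher and 1 lower, where 15.4% and 16.7% of all genes were. vir-1, a gene induced by virus infection, was at 13.43, 13.38, 14.08 and 14.15 on the Rad21 arrays and 13.01, 12.97, 13.12 and 13.42 on the Mock arrays, an effect of 0.63 ± 0.07 (SE, adjusted p = 0.000186). It is the most raised gene of that list but a response gene, so the 3 raised genes are not all components of the pathway. Dcr-2, the nuclease that cuts long dsRNA, rose by 0.29 and loqs by 0.49, while the effect of r2d2 was 0.19 (adjusted p = 0.383). On the Toll, IMD and antimicrobial list 3 of 13 rose (23.1%) and 1 fell (7.69%). dl, the NF-κB factor Dorsal, had an effect of 0.58 ± 0.09 (SE, adjusted p = 0.000885). The peptide genes Drs and Mtk had effects of 0.71 and 0.79 that were not called (adjusted p = 0.181 and 0.239).

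Genes of particular cell types moved in both directions. Of 7 glial genes 2 rose, htl (0.74) and nrv2 (0.50), and 2 fell. Gli, gliotactin, was at 6.46, 7.02, 6.33 and 6.16 on the Rad21 arrays and 7.89, 7.81, 7.62 and 8.49 on the Mock arrays, an effect of -1.46 ± 0.19 (SE, adjusted p = 0.000444). wrapper was at 2.58, 2.56, 2.76 and 3.04 on the Rad21 arrays and 4.29, 5.07, 5.07 and 5.17 on the Mock arrays, below log2 4 on every Rad21 array and above it on every Mock array. Of 6 haemocyte genes 3 rose, among them srp (0.48) and ush (0.48), and 2 fell (1 without Rad21 replicate 2 or 4). eater, a phagocytic receptor, was at 6.39, 6.03, 2.5 and 2.64 on the Rad21 arrays and 7.18, 6.86, 5.78 and 6.74 on the Mock arrays, near background on the later Rad21 arrays. Its effect was -2.25, and -1.54 with values under log2 4 set to 4. sls, the muscle titin, was the 1 tested muscle gene, at 6.05, 5.85, 4.03 and 3.60 on the Rad21 arrays and 3.41, 3.61, 3.40 and 3.22 on the Mock arrays, and was called at day 3 (an effect of 2.44) and not at days 4 and 6 (0.51). Among neuronal genes cpx fell (-0.75), Rop rose (0.27), and elav (0.56, adjusted p = 0.204) was not called. With the replicate block 4 of the 5 tested neuronal genes were higher and 1 lower. pum, which encodes a translational repressor, rose by 0.72, and the other 5 tested neural translational regulators were not called, while with the block 6 of the 7 were called higher.

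The direction of the change went with the length of the gene. Spans were taken from the RefSeq annotation of Release 6 of the genome, which covers 5913 of the 5928 tested genes (99.7%). In the shortest quintile (267 to 1413 bp) 17.1% of genes were higher and 36.6% lower with Rad21 RNAi. In the longest quintile (7463 to 394149 bp) 41.1% were higher and 12.8% lower. The quintiles between followed in order, with 20.3%, 24% and 33.8% higher and 31.7%, 27% and 17.8% lower, and the median effects of the 5 quintiles were -0.08, -0.03, 0.02, 0.10 and 0.19. Of the genes raised 2-fold or more 62 were in the longest quintile, and 14 to 26 in each of the others. Genes lowered 2-fold or more did not follow the order, with 24, 33, 22, 23 and 37.

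The same order was present at each level of expression. Within the tertile of genes with the lowest Mock level 18.4% of the shortest tertile and 34.4% of the longest tertile were higher, within the middle level 18.1% and 40.3%, and within the highest level 18% and 42.3%. Without the genes of the translation, RNA polymerase and oxidative phosphorylation lists the shares higher were 20.1% in the shortest and 41.1% in the longest quintile, and the shares lower 31.6% and 12.6%. At day 3 alone the shares higher were 10.1% and 21.1% (15.4% of all genes), and at days 4 and 6 they were 12.3% and 34.9% (21.5% of all genes). These are descriptions over genes, which are not independent replicates, and the splits without those lists and by time class were chosen after the values were seen. Genes of chromosome 4 had a median effect of 0.30 and were called higher in 11 of 37 cases (29.7%) and lower in 3 (8.11%), while the median of every other arm was between 0.00 and 0.07.

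**Figure D4:**
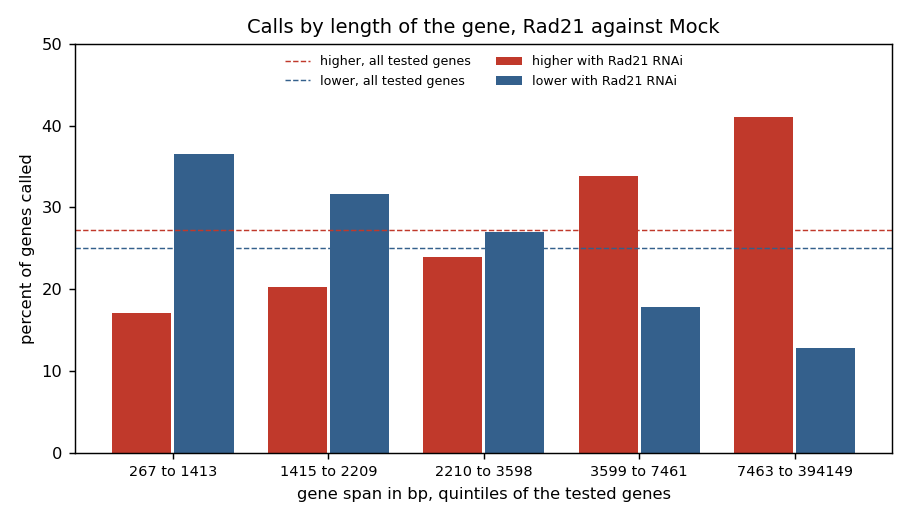
Percent of genes called higher (red) and lower (blue) with Rad21 RNAi (y axis) in quintiles of the tested genes by gene span in bp (x axis); dashed lines are the shares over all tested genes, 27.3% higher and 25.1% lower. The red bars climb from 17.1% to 41.1% and the blue bars drop from 36.6% to 12.8% with increasing length.

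Each time class was also taken alone. At day 3, 1097 probe sets were higher (14.9%) and 1164 lower (15.8%), and at days 4 and 6, 1580 were higher (21.5%) and 1470 lower (20%). Of these 1578 were called in both classes, 69.8% of the day 3 calls and 51.7% of the later calls, and 1562 of them in the same direction. Each class is 2 arrays against 2: the day 3 count of 2261 was 1140 without Rad21 replicate 2, 1229 without Rad21 replicate 1 and 1292 without Mock replicate 1, and the later count of 3050 was 1936 without Rad21 replicate 3 and 1973 without Rad21 replicate 4.

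A test of the change between classes called 91 probe sets (1.24%), with 27 effects more positive (0.367%) and 64 more negative (0.871%) at days 4 and 6. CG10621 was at 2.29, 2.30, 5.88 and 6.39 on the Rad21 arrays and 2.26, 2.31, 2.29 and 2.28 on the Mock arrays, at background except on the later Rad21 arrays. Nos, nitric oxide synthase, was at 4.30, 3.75, 4.02 and 4.30 on the Rad21 arrays and 4.10, 2.92, 6.67 and 6.90 on the Mock arrays. ChLD3 was at 2.82, 2.93, 3.38 and 3.41 on the Rad21 arrays and 3.30, 3.27, 6.35 and 6.17 on the Mock arrays. In Nos and ChLD3 the Rad21 arrays stayed low and the Mock arrays of days 4 and 6 were the high ones. The changes were 3.83 for CG10621, -3.14 for Nos and -2.46 for ChLD3, with adjusted p of 0.049, 0.0819 and 0.0357. All Mock arrays of CG10621 and all Rad21 arrays of ChLD3 were under log2 4. With such values set to 4 the changes were 2.14 for CG10621, which was then not called (adjusted p = 0.174), -2.72 for Nos and -2.26 for ChLD3 (adjusted p = 0.017 and 0.00185). peg, at 2.25, 2.18, 2.37 and 2.29 on the Rad21 arrays and 3.85, 2.37, 6.12 and 6.61 on the Mock arrays, and P5cr-2, a proline synthesis enzyme at 4.49, 4.74, 4.65 and 4.60 on the Rad21 arrays and 4.51, 3.92, 6.13 and 7.14 on the Mock arrays, followed the pattern of Nos. With values under log2 4 set to 4 the change for peg was -2.37, against -3.14 without that floor.

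jdp was at 6.44, 6.37, 7.31 and 7.60 on the Rad21 arrays and 7.62, 7.38, 6.19 and 5.76 on the Mock arrays. rgn was at 6.15, 6.38, 7.56 and 7.68 on the Rad21 arrays and 7.10, 6.86, 6.00 and 4.68 on the Mock arrays. Both were below Mock on day 3 arrays and above Mock at the later days, and their effects over both classes were 0.19 (adjusted p = 0.376) and 0.78 (adjusted p = 0.0523); with the replicate block rgn was not called (adjusted p = 0.269). CG6040, at 5.35, 5.23, 6.74 and 7.42 on the Rad21 arrays and 8.83, 8.86, 8.72 and 8.11 on the Mock arrays, was further below Mock at day 3. The count of 91 rests on single arrays: it was 0 without Rad21 replicate 1 or replicate 2, 1 without Mock replicate 1, 2 when Mock replicate 2 or Rad21 replicate 4 was left out, 12 when Mock replicate 4 or Rad21 replicate 3 was, and 988 when Mock replicate 3 was. Leaving out a Nipped-B array gave 18 (replicate 1 or 2), 240 (replicate 3) or 241 (replicate 4).

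**Figure D5:**
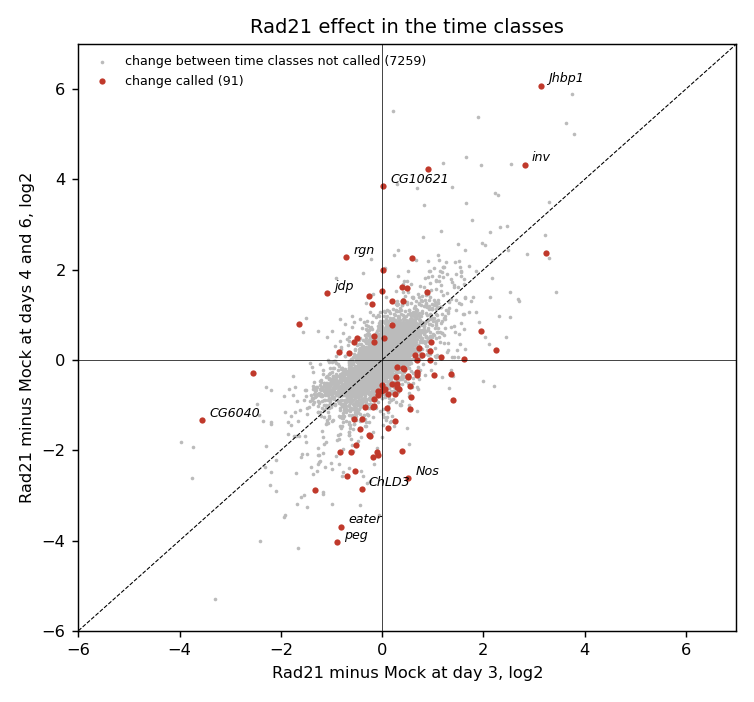
Effect of Rad21 RNAi at days 4 and 6 (y axis) against that at day 3 (x axis), both in log2, with 1 point per tested probe set; red points are the 91 whose change between the classes was called and the dashed line marks equal effects. Both axes rest on 2 Rad21 and 2 Mock arrays; Jhbp1 and inv lie above the line at upper right, CG10621 was raised at the later days, and eater, peg and ChLD3 were lowest relative to Mock at the later days.

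Set directly against Nipped-B RNAi, without Mock, Rad21 RNAi differed in 7 of 7350 probe sets (0.0952%), and 385 had an unadjusted p under 0.05. arg, arginase, was at 9.06, 9.18, 8.94 and 9.18 on the Rad21 arrays and 7.87, 7.85, 7.88 and 7.96 on the Nipped-B arrays, a difference of 1.2 ± 0.13 (SE, adjusted p = 0.0247). inv was higher in Rad21 cells by 0.89 (adjusted p = 0.0479). Idgf6 (-1.28), CG7737 (-1.04) and CG45263 (-1.0) were lower, with adjusted p of 0.0318, 0.0318 and 0.0924. Idgf6 was at 3.56, 3.54, 3.62 and 3.66 on the Rad21 arrays and 3.53, 2.97, 6.32 and 6.67 on the Nipped-B arrays, so that only the later Nipped-B arrays passed log2 4. A difference that was not called does not show that both knockdowns acted alike. The count was 14 with the replicate block and 0 without Nipped-B replicate 1 or Rad21 replicate 2, and 120 without Nipped-B replicate 4. Both knockdowns were set against the same 4 Mock arrays, and the median effects in Rad21 and in Nipped-B cells were -0.87 and -0.82 for nucleolar assembly, -0.61 and -0.54 for tRNA synthetases, 0.46 and 0.45 for the EGF receptor pathway and 0.55 and 0.35 for the ecdysone response. Other lists were less alike, with medians of 2.87 and 0.91 for the E(spl)-C and -0.26 and -0.08 for glycolysis.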

How the data were processed

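Total RNA of BG3 cells was hybridised to Affymetrix Drosophila Genome 2.0 arrays, 1 per sample. The authors made the deposited log2 expression values from the scans with GCRMA in R, which adjusts the background by probe GC content and normalizes by quantiles. No source used here gives the version of GCRMA. The table holds 18952 probe sets, of which 183 controls were left out, and 0 columns of values per sample were left unused. Of the other 18769, 13647 name 1 gene, 402 several and 4720 none in the platform annotation. Current symbols came from RefSeq (Release 6) for 13544. A gene with several tested probe sets (346 genes) was counted once.

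Probe sets that reached log2 4 on 2 or more arrays entered a limma fit (3.58.1, under R 4.3.3) of 6 group means (treatment in time class) with a trend in the variance. Scripts in Python 3.11.15 made the counts. The main fit was first checked on simulated data, for Rad21 against Mock only and with noise drawn independently for each array. Rad21 and Mock arrays of the same replicate number share the number of days after RNAi in the labels, and the deviations of Rad21 and Mock arrays of the same number from their group means correlated at 0.63, 0.59, 0.76 and 0.52. These deviations include the change with time, which the time class takes up in part. For the day 3 arrays alone, measured from the day 3 mean, the correlation was 0.498. Arrays of the same number were therefore compared as pairs, but the main fit has no term for pairs. A fit with the replicate number as a block was run as an alternative. Other alternatives were the filter, the variance model, median centring, the arrays in the fit, a floor at log2 4, the threshold, treatment as the only term and leaving out each array in turn. Labels call the arrays biological replicates.

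Genes given with values per array are the 20 most raised and 20 most lowered genes whose direction was shared by 4 of 4 pairs (ranked with values under log2 4 set to 4), the cohesin, E(spl)-C and engrailed genes, the most raised and most lowered member of each of 59 gene lists, and the leading genes of the other comparisons. A few more, and the list members given by effect alone, were chosen after their values were seen. The lists and comparisons were chosen with earlier results of these data known. Of the 133 genes the rule names, 28 are read by a probe set whose suffix marks sequence shared between transcripts.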

Additional observations from a re-analysis of the deposited data

Results flagged for a closer look

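In 6 of 254 groups of 4 arrays (127 named genes in Rad21 and in Mock cells) a single array stood apart from the other 3 by more than Dixon's 95% limit. The limit flags about 1 in 20 groups, here 13, if the 4 arrays are draws from 1 normal distribution. Each group spans days 3, 4 and 6, so that rate need not hold here. On Rad21 arrays the flagged values were numb at 10.46, Polr1B at 7.07 and Vha100-2, a subunit of the vacuolar ATPase, at 10.21 in replicate 4, and Lsd-1 at 8.05 in replicate 3. On Mock arrays they were LpR1 at 8.01 in replicate 4 and eIF6 at 11.94 in replicate 3.

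The effect of Rad21 RNAi differed between the time classes for 14 named genes, by the limma test of that difference, which called 1.24% of all probe sets. Of the 14, 10 were named for leading that test, so their number was fixed by the choice, and the other 4 are inv, CG13795, eater and arg. The effect was more positive at days 4 and 6 than at day 3 for Jhbp1 by 2.93 (adjusted p = 0.0445), inv by 1.5 (adjusted p = 0.049), CG6040 by 2.21 (adjusted p = 0.0605), rgn by 2.99 (adjusted p = 0.0819), jdp by 2.56 (adjusted p = 0.0357) and CG10621 by 3.83 (adjusted p = 0.049). It was more negative for CG13795 (-1.56, adjusted p = 0.0421), eater (-2.88, adjusted p = 0.0833), Nos (-3.14, adjusted p = 0.0819), P5cr-2 (-2.41, adjusted p = 0.081), peg (-3.14, adjusted p = 0.081), ChLD3 (-2.46, adjusted p = 0.0357), CG1971 (-2.01, adjusted p = 0.0837) and arg (-1.31, adjusted p = 0.0819). A floor at log2 4 under all values ended the call of this change for eater (-1.45, adjusted p = 0.232) and for CG10621 (2.14, adjusted p = 0.174). The same floor brought a call for wit (-3.21, adjusted p = 0.00185), sls (-1.94, adjusted p = 0.0631) and CG45263 (1.10, adjusted p = 0.0954). Time class cannot be told apart from the amount of dsRNA.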

How the results depend on the processing

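The counts of raised and lowered probe sets (2009 and 1773 by limma) stayed within 1.5 times under every alternative run except treatment as the only term, which gave 1325 higher and 1324 lower. With each array left out in turn they were 1543 to 2164 higher and 1484 to 1907 lower. With replicate number as a block they were 2342 and 1915, and the block kept 3643 of the 3782 calls (96.3%). Of 117 named genes called, 84 were called under each of 21 alternatives, 33 lost the call under at least 1 of them and 0 changed direction. The block ended the call for Hsp68, Nos, P5cr-2, aos, aux, dom and rgn and for no other named gene.

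The day 3 count of 2261 was 1140 to 2615 with each array left out, and the count of 3050 at days 4 and 6 was 1936 to 3323. The 91 changes between time classes became 60 with no filter, 4 in a plain linear model, 19 at an adjusted p of 0.05 and 0 to 988 with each array left out. The 7 differences from Nipped-B became 16 with no filter, 0 in a plain linear model, 14 with the replicate block, 0 with treatment as the only term, 11 with values under log2 4 set to 4, and 0 to 120 with each array left out. The main counts had 1029 and 385 probe sets with an unadjusted p under 0.05. Among list counts of 5 or more genes, treatment as the only term moved these by over 1.5 times. It left 0 lowered glycolytic genes (7 otherwise) and 2 lowered DNA damage genes (7). It left 4 raised trithorax group genes (10), 3 Polycomb group genes (6), 4 Mediator genes (9), 0 insulator genes (5), 4 ecdysone response genes (8), 4 Notch processing genes (7), 3 Dpp pathway genes (6), 9 adhesion genes (14), 2 mitotic genes (5) and 2 lipid genes (5). No filter on low values gave 16 lowered cytosolic ribosomal protein genes (25), 3 lowered glycolytic genes, 7 raised EGF receptor genes (11), 9 raised adhesion genes, 3 raised insulator genes and 3 raised lipid genes. Many smaller counts moved with a single array. Leaving out an array lowers the number of samples. It also leaves 1 array in that treatment and time class, which then adds nothing to the shared estimate of the spread. What part each has in the moved counts was not tested, nor were other causes. Days 4 and 6 had 1 array per treatment each, and levels under log2 4 have no reliable order, so folds of genes at background in Rad21 or Mock cells are uncertain.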
